A study of Homo sapiens with 4 samples.

Results

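Lysozyme, Fc receptors, their signalling adaptors and the receptors for colony-stimulating factors are genes by which a monocyte kills, senses and responds, and 10 of them were followed here in leukaemia cells made to overexpress BTG2. They were chosen by gene symbol, from what their proteins do and with the fold changes of this same comparison already known, so every value below that comes from it is a description and supports nothing by itself. All 10 had a row among the 11597 genes of the authors' deposited table. They are LYZ, MS4A6A, FCER2, PLXNC1, FCER1G, FCGR2A, TYROBP, CSF1R, CSF3R and LILRB4.

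The cells were MOLM13, a human acute myeloid leukaemia line of monocytic character, with the genotype given as WT in the controls and BTG2 OE in the others. Both groups received lentivirus whose EF1α promoter also drove puromycin resistance and ZsGreen, and 2 libraries carried the BTG2 cDNA while 2 carried the empty vector. For both groups the labels give a spin at 32 °C and 1500 RCF for 60 min with 5 µg/mL polybrene, and 10% serum. RNA was taken 3 days after transduction, and the labels name neither selection nor sorting of transduced cells. BTG2 is an adaptor that brings the CCR4-NOT deadenylase to transcripts, and its effect on transcript stability is the question the series states.

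A monocyte senses antibody-coated particles through Fc receptors. Several of them, and other activating receptors, carry no signalling motif of their own and depend on the small adaptor chains made by FCER1G and TYROBP, whose tyrosine motifs recruit the kinase SYK. Inhibitory receptors such as LILRB4 oppose this through phosphatases. CSF1R and CSF3R direct monocyte and neutrophil production, and lysozyme is the enzyme that monocytes secrete against bacterial walls.

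Windows around the transcription start are shown first for 4 genes: the pair of adaptors, whose fold changes differed in size, and PLXNC1 and MS4A6A, which were both lower and hold a match to the core site of PU.1, the ETS factor of the myeloid lineage. Each runs from 250 bases before to 50 after a RefSeq start on GRCh38.p14 and reads 5′ to 3′ on the gene's strand, with capitals marking GAGGAA (the PU.1 core) or TGTGGT (the RUNX core) on either strand. FCER1G lies at chr1:161215045-161215344 on the plus strand, TYROBP at chr19:35908246-35908545 on the minus strand, PLXNC1 at chr12:94148327-94148626 on the plus strand and MS4A6A at chr11:60184617-60184916 on the minus strand.
FCER1G: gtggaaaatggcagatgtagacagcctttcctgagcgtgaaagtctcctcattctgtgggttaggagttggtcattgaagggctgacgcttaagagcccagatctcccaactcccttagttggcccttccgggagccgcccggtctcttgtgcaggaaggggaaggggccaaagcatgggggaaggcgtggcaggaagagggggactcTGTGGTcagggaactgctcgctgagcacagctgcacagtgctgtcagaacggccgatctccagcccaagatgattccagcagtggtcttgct
TYROBP: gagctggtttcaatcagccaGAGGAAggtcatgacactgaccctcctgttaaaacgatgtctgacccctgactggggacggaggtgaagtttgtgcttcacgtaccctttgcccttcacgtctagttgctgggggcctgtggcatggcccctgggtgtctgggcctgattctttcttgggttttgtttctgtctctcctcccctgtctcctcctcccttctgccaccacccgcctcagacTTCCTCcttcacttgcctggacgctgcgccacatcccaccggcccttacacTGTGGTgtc
PLXNC1: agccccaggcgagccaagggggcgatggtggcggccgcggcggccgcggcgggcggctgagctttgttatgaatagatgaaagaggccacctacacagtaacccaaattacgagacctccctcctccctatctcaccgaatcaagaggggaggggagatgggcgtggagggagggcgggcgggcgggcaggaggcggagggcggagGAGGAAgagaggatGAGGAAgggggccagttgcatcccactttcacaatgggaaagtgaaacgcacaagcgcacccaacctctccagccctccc
MS4A6A: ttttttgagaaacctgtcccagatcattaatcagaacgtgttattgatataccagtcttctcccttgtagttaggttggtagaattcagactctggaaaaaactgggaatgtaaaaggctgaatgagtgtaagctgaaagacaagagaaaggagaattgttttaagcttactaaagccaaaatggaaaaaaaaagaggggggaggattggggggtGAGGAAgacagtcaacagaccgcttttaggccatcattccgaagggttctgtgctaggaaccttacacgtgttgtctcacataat

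Of the 10 genes, 9 had a window in the RefSeq table, all but LYZ. GAGGAA or its reverse complement was present in 5 of the 9 windows, against 27.9% of the 35116 windows of the same length in the table. TGTGGT was present in 3 of the 9, against 13.1% of all windows, and the TATA box hexamer TATAAA in 2 of the 9, against 11.5%. These shares cover the windows of 27305 genes, whether listed in the authors' table or not, and some genes have more than 1. Each of the 9 has 1 chosen window, so the 2 sets are unlike. Only the window of TYROBP held both the PU.1 and the RUNX letters, and they did not overlap there. Among the genes with a PU.1 core were LILRB4, MS4A6A and PLXNC1, which were lower, and FCGR2A and TYROBP, which did not pass the authors' limit. A match is only a run of letters, and binding was not measured.

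As a check of the labels, BTG2 stood at a log2 fold change of 5.01 (SE 0.09) in the authors' deposited table, 32.3-fold above the empty vector. The table pools the libraries of each group. Errors given below are therefore its standard errors (SE), and how far single libraries lay apart or overlapped is unknown. The table's lowest mean normalized count was 5.06 and its median 151. Rows were found for 9 of 16 monocyte and macrophage markers, among them CD68 and LYZ, and CD14, FCN1, VCAN, CD163, MSR1 and FCGR3A were among those without one. Of granulocyte and precursor markers 5 of 11 had a row, as did 3 of 10 for T and NK cells, 2 of 8 for dendritic cells and 1 of 8 for B cells. Progenitor (0 of 8), erythroid and megakaryocyte (0 of 10) and mast cell (0 of 7) markers had none. Of these markers, LYZ alone of the 9 monocyte genes passed, and of the granulocyte genes ELANE and PRTN3 were higher while MPO and AZU1 were lower. LYZ and CSF1R in the monocyte list and CSF3R in the granulocyte list are themselves among the 10 genes chosen with their values known. In the lymphoid and dendritic lists NCAM1 (-0.53), NKG7 (-0.36) and IL3RA (-0.38) were lower on the log2 scale in the authors' deposited table. PAX5 was lower by a far larger and less precise amount there, at -9.28 (SE 1.47) and a mean normalized count of 53.1. The part of the cell states that these markers stand for was not tested either.

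With BTG2, 6 of the 10 genes were lower and 0 were higher at the authors' adjusted p under 0.05. By comparison, 4.47% of all listed genes were lower and 3.64% higher by the same limit. At an unadjusted p under 0.05, 7 of the 10 passed and 0 of these were higher, while 17.6% of all listed genes passed that unadjusted limit, 9.64% lower and 7.92% higher. The same shares of all listed genes are the background for the counts in each related list below. The log2 fold change was negative in 9 of the 10, with a median of -0.41, whereas 49.9% of all listed genes were negative and their median was 0.00. A change of at least 2-fold in either direction, which is an absolute log2 fold change of at least 1, was found for 3 of the 10 (FCER1G, FCER2 and MS4A6A) and for 3.35% of all genes. FCER1G, in both this count and that of the 6, owes its row to its empty-vector level, as given below. Since RNA of whole cultures was measured, fewer cells making a transcript and less of it in each cell cannot be told apart.

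**Figure D1:**
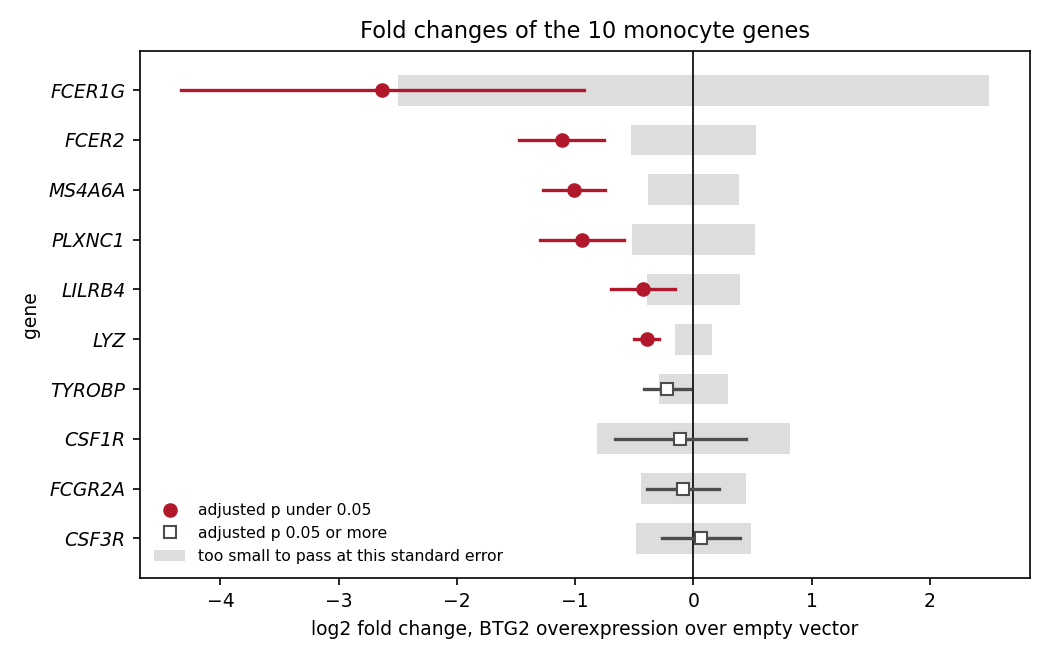
Log2 fold change (x axis, BTG2 overexpression over empty vector) of each gene (y axis), with lines for its 95% interval from the authors' standard error and grey bars for changes too small to pass the authors' limit at that error. The 6 filled points lie outside their grey bars, FCER1G by the least margin relative to its interval, and the 4 open squares lie inside.

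The adaptor chains differed in level and in how well they were measured. FCER1G, the shared gamma chain of the IgE receptor and of several IgG receptors (chromosome 1, from 161215234 to 161220699, 5 exons), had the lowest mean normalized count of the 10, at 9.92, which only 1.90% of listed genes fell below. Its log2 fold change was -2.63 (adjusted p = 0.0342, SE 0.87) in the authors' deposited table, with a 95% interval from -4.34 to -0.93. If the fold equals the ratio of the group means, this corresponds to 17.1 normalized counts with the empty vector and 2.76 with BTG2, an implied pair that rests on few reads. The lowest mean of any listed gene was 5.06, which lies between these 2 levels. FCER1G thus has a row through the group in which it is high, and that favours a fall over a rise. At that standard error only a change of 2.50 or more on the log2 scale would have passed, so FCER1G passed narrowly.

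TYROBP, the adaptor also called DAP12 (chromosome 19, from 35904401 to 35908295, 5 exons), was measured far better, at a mean normalized count of 605. The authors' deposited table gave TYROBP a log2 fold change of -0.22 (SE 0.10), with an adjusted p of 0.181, so it did not pass. The implied levels were 652 with the empty vector and 558 with BTG2, and the 95% interval, from -0.42 to -0.03, was wholly negative. The intervals of FCER1G and TYROBP did not overlap, but FCER1G has its row only through its empty-vector level, so the comparison is uneven.

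Receptors other than Fc receptors that pair with these chains were in a list of 27 genes with HCST, a related adaptor. Of these, 6 had a row, and 0 of them passed in the authors' deposited table. At an unadjusted p under 0.05, 2 of the 6 were higher and 0 lower, against 7.92% and 9.64% of all listed genes. The 6 had a median of 0.41 on the log2 scale, and 5 of them were positive. LILRA2, an activating leukocyte receptor, stood at 0.62 in the authors' deposited table (SE 0.30), SIRPB1, a TYROBP partner, at 0.62 (SE 0.31), and PILRB, another one, at 0.65 (SE 0.41).

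Of the receptors for antibody, one was lower by more than 2-fold and the other was near 0. FCER2, or CD23, the low-affinity IgE receptor, is a lectin-type membrane protein that does not use the gamma chain (chromosome 19, from 7688758 to 7702146, 11 exons). Its log2 fold change was -1.12 (SE 0.18) in the authors' deposited table, at a mean normalized count of 158. That corresponds to implied levels of 217 with the empty vector and 46.1% of that with BTG2. FCGR2A, the activating IgG receptor that carries its own tyrosine motif (chromosome 1, from 161505430 to 161524013, 7 exons), stood at -0.09 (adjusted p = 0.887, SE 0.16) in the authors' deposited table. Its 95% interval ran from -0.39 to 0.22, and its implied levels were 212 and 199.

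Reads of FCGR2A are hard to assign. Its principal transcript aligned to FCGR2C over most of its length at 96.8% identity and to FCGR2B over 47.5% at 94.9%, and no source used here states how such reads were counted. FCGR2B, the inhibitory IgG receptor, stood at 0.10 (SE 0.15) in the authors' deposited table and did not pass.

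Other Fc receptors were few in the table. Of 23 in the list, 7 had a row, 2 were lower and 0 higher, and at an unadjusted p under 0.05 the counts were 3 and 0. FCGR1A, the high-affinity IgG receptor that does pair with the gamma chain, fell by 0.39 on the log2 scale (adjusted p = 0.00258, SE 0.10) in the authors' deposited table. Its near-identical relative FCGR1BP fell by 0.81 (adjusted p = 0.0389, SE 0.27) in the authors' deposited table, and reads may pass between these 2 genes. FCRLA, an intracellular relative of Fc receptors, stood at -1.29 (SE 0.51) in the authors' deposited table and did not pass at a mean normalized count of 32.8. The median of the 7 was -0.17.

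Among 12 listed ligands, shedding proteases and inducing receptors of FCER2, 9 had a row, 0 passed in the authors' deposited table, and 1 was lower at an unadjusted p under 0.05, with a median of 0.03. In the authors' deposited table that gene, ADAM10, the protease that sheds FCER2 from the cell surface, stood at -0.31 (SE 0.15). The integrin chain ITGB2 stood at 0.05 (SE 0.05) and the receptor NOTCH2 at 0.21 (SE 0.22) there.

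LILRB4, an inhibitory leukocyte receptor found on monocytic cells (chromosome 19, from 54643889 to 54670359, 14 exons), was lower by a smaller amount. Its log2 fold change was -0.42 (adjusted p = 0.0310, SE 0.14) in the authors' deposited table, with a 95% interval from -0.69 to -0.15. Implied levels were 331 normalized counts with the empty vector and 247 with BTG2, 25.5% lower. A change of 0.40 was the smallest that would have passed at its error, so LILRB4, like FCER1G, lay close to the limit.

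Of 32 inhibitory receptors and the phosphatases they recruit, 14 had a row, 1 was lower and 0 higher, with a median of 0.04. INPP5D, the lipid phosphatase SHIP1, fell by 0.25 (adjusted p = 0.00576, SE 0.07) in the authors' deposited table. CSK, a kinase that restrains SRC-family kinases, stood at 0.19 (SE 0.07) and the adaptor PAG1 at -0.32 (SE 0.20) there, and neither passed. A pair of LILRB4 relatives did not pass in the authors' deposited table either, LILRB1 at -0.27 (SE 0.58) and LILRA1 at 0.20 (SE 0.57). Ligands and partners of LILRB4 had 3 rows of 6, and 0 passed at either limit in the authors' deposited table. They were ALCAM at 0.33 (SE 0.20), TRAF2 at 0.22 (SE 0.16) and CTSD at 0.00 (SE 0.10), with a median of 0.22.

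Downstream of the receptors, 33 of 35 kinases and adaptors had a row, 2 were lower and 0 higher, and at an unadjusted p under 0.05 the counts were 3 and 0. The adaptor BLNK fell by 1.41 (adjusted p = 0.0327, SE 0.46) in the authors' deposited table, at a mean normalized count of 25.5. LAT2, an adaptor of myeloid and B cells, stood at -0.13 (SE 0.06) in the authors' deposited table and SYK itself at 0.01 (SE 0.13), and neither passed. The median of the 33 was -0.05.

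**Figure D2:**
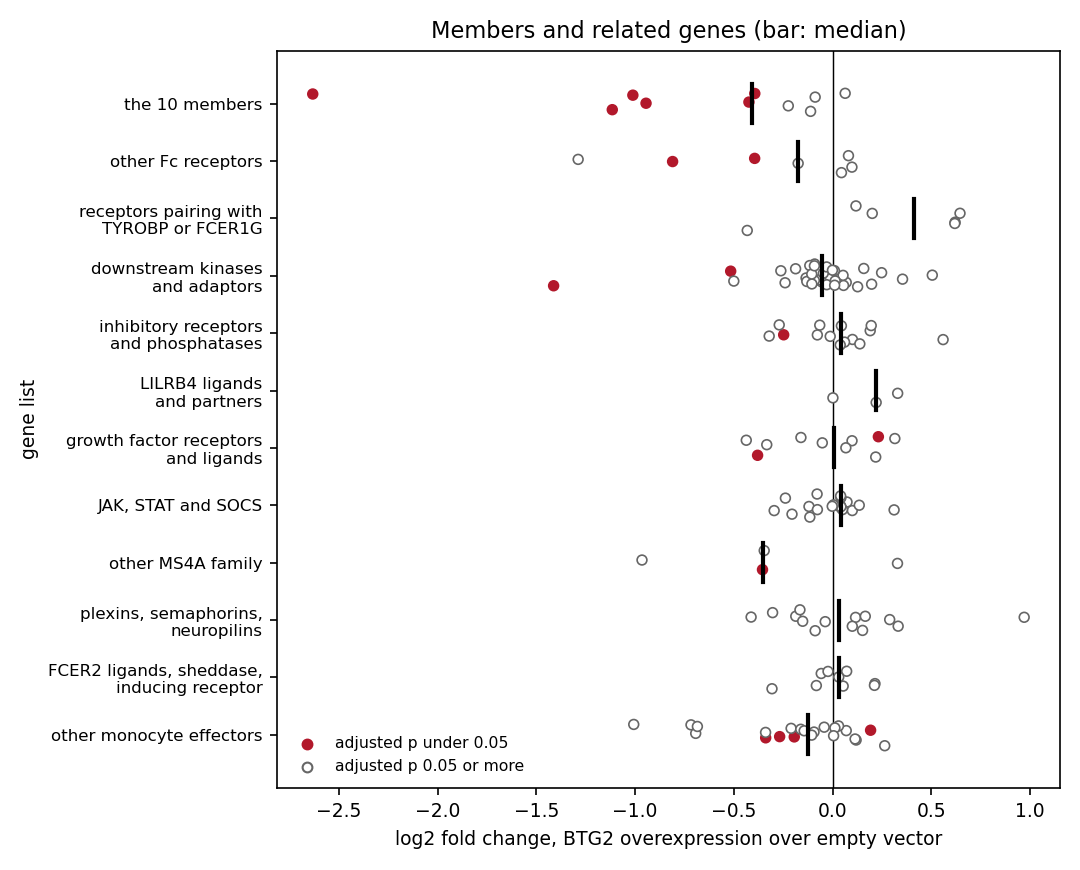
Log2 fold changes (x axis) of the 10 genes and of the listed members of 11 related gene lists (y axis), with filled points for an adjusted p under 0.05 and bars for medians. The medians of the related lists run from -0.35 for other MS4A genes to 0.41 for receptors that pair with the adaptors, beside -0.41 for the 10, which were chosen with these values known.

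The receptors for colony-stimulating factors were both near 0. CSF1R, the receptor tyrosine kinase for CSF1 and IL34 (chromosome 5, from 150053291 to 150113372, 22 exons), stood at -0.11 (adjusted p = 0.934, SE 0.28) in the authors' deposited table. At its mean normalized count of 71.6 the 95% interval, from -0.67 to 0.44, was wide, and a change under 0.81 on the log2 scale was not detectable at this depth. CSF3R, the receptor for G-CSF (chromosome 1, from 36466043 to 36483278, 17 exons), stood at 0.06 (adjusted p = 0.938, SE 0.17) in the authors' deposited table and was the one positive value of the 10. Its interval ran from -0.27 to 0.39, with implied levels of 213 and 222.

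Related growth factor receptors and ligands had 10 rows of 21, with 1 higher, 1 lower and a median of 0.01. IL3RA, the alpha chain of the interleukin-3 receptor, fell by 0.38 (adjusted p = 0.00971, SE 0.11) in the authors' deposited table, whereas FLT3, the receptor kinase of early myeloid cells, rose by 0.23 (adjusted p = 0.0113, SE 0.07). CSF2RA, the GM-CSF receptor alpha chain, stood at -0.33 (SE 0.17) in the authors' deposited table and did not pass. Of 20 JAK, STAT and SOCS genes, through which CSF3R signals, 19 had a row, and 0 passed in the authors' deposited table, also at an unadjusted p under 0.05. SOCS2 and SOCS1, feedback inhibitors of these kinases, stood at -0.12 (SE 0.06) and -0.30 (SE 0.17) in the authors' deposited table, and the list's median was 0.04.

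PLXNC1, the plexin that serves as receptor for the semaphorin SEMA7A (chromosome 12, from 94148723 to 94307675, 31 exons), was lower by nearly the same amount as FCER2. The authors' deposited table gave it a log2 fold change of -0.94 (adjusted p = 9.35e-06, SE 0.18) at a mean normalized count of 160. Implied levels were 210 with the empty vector and 109 with BTG2, 48.1% lower. PLXNC1 overlaps the gene CEP83 by 1227 bases on the opposite strand, and no source states whether strand was used in counting. CEP83 stood at 0.26 (SE 0.28) in the authors' deposited table and did not pass.

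Other plexins, semaphorins and their co-receptors had 14 rows of 31, and 0 passed in the authors' deposited table, with 1 lower and 0 higher at an unadjusted p under 0.05. The ligand SEMA7A stood at 0.33 (SE 0.20), the integrin chain ITGB1 at -0.30 (SE 0.13) and PLXNB1 at 0.97 (SE 0.58) in the authors' deposited table. PLXNB2 and PLXND1, the most abundant plexins by mean normalized count, stood at 0.15 (SE 0.10) and 0.12 (SE 0.10) there. The median of the 14 was 0.03.

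MS4A6A, a tetraspan-like membrane protein of monocytes and macrophages (chromosome 11, from 60172014 to 60184666, 8 exons), had the largest absolute score of the 10. Its log2 fold change was -1.01 (adjusted p = 3.44e-12, SE 0.13) in the authors' deposited table, at a mean normalized count of 302. The implied levels were 403 with the empty vector and 49.6% of that with BTG2. Of 14 other MS4A genes 4 had a row, 1 was lower and 0 higher, and the counts at an unadjusted p under 0.05 were 2 and 0. MS4A7, its neighbour in the same cluster, fell by 0.36 (adjusted p = 0.0152, SE 0.11) in the authors' deposited table. MS4A4A stood at -0.97 (SE 0.46) and MS4A3 at -0.35 (SE 0.27) there, without passing, and the median of the 4 was -0.35.

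LYZ, lysozyme (chromosome 12, from 69348341 to 69354234, 4 exons), was by far the most abundant of the 10 and changed by a small, precisely measured amount. In the authors' deposited table it had a mean normalized count of 6277, above 98.6% of listed genes, and a log2 fold change of -0.39 (adjusted p = 5e-11, SE 0.05). The 95% interval ran from -0.50 to -0.29, and implied levels were 7129 with the empty vector and 5425 with BTG2, 23.9% lower. At its error a change of 0.16 would have passed, against 0.53 for FCER2, whose larger fold had an adjusted p of 1.15e-07 in the authors' deposited table.

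Other secreted and phagocytic effectors of monocytes had 22 rows of 36, with 3 lower, 1 higher and a median of -0.13. At an unadjusted p under 0.05, 6 of the 22 were lower and 1 higher, against 9.64% and 7.92% of all listed genes. CST3, cystatin C, fell by 0.27 (adjusted p = 1.55e-05, SE 0.05) and the B cell survival factor TNFSF13B by 0.34 (adjusted p = 0.00191, SE 0.09) in the authors' deposited table. CTSC, the protease that activates granule serine proteases, fell by 0.19 (adjusted p = 0.0410, SE 0.07), and CFD, complement factor D, rose by 0.19 (adjusted p = 6.96e-05, SE 0.04) in the authors' deposited table. CD68, AIF1 and CTSS, abundant monocyte genes, stood at 0.01 (SE 0.07), 0.03 (SE 0.05) and 0.00 (SE 0.08) in the authors' deposited table.

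**Figure D3:**
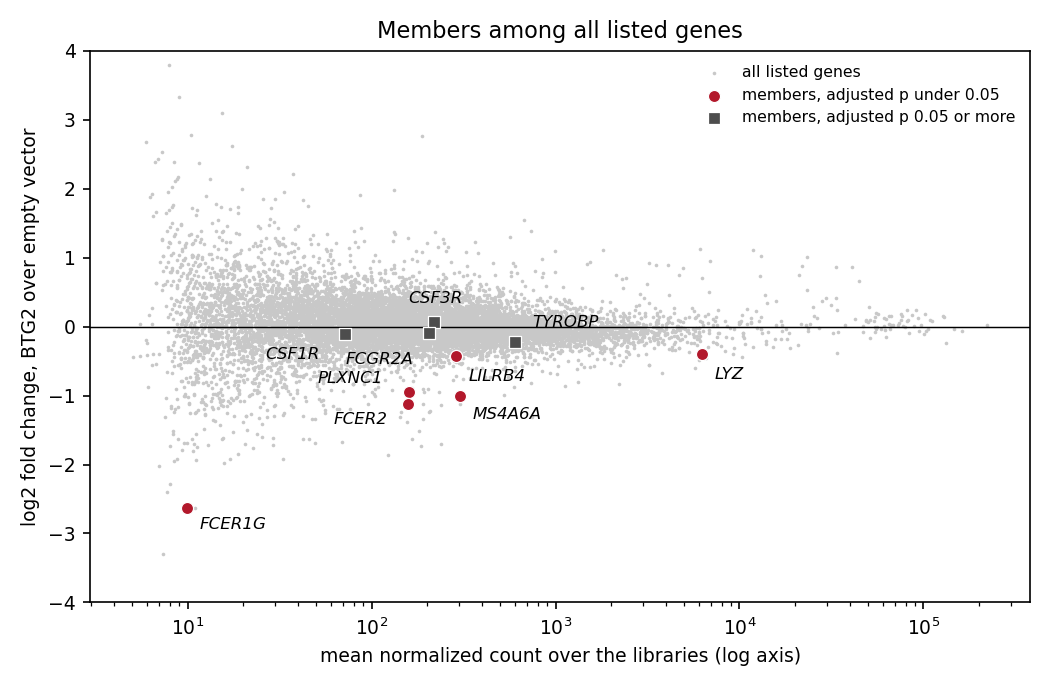
Mean normalized count over the libraries (x axis, log scale) against log2 fold change (y axis) for all listed genes in grey, except 43 beyond 4 in either direction, with the 10 genes marked. LYZ lies far to the right at 6277, FCER1G far to the left at 9.92, and the other 8 lie between 71.6 and 605.

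Set against each other, the 10 fall into ranges that their errors separate only in part. The 95% intervals of FCER2, MS4A6A and PLXNC1 overlapped one another, and the order of these 3 is within their error. The interval of LYZ lay wholly above those of FCER2, MS4A6A and PLXNC1 and wholly below that of CSF3R. LILRB4 had a value close to that of LYZ, but its wider interval overlapped those of 6 of the other 9, CSF3R included. FCER1G had the lowest value, yet its interval overlapped those of FCER2, MS4A6A and PLXNC1, so its larger fold is not separated from theirs.

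If the reads are short fragments, levels can be compared between genes only per length, and which kind of read gave the table is unknown. Per kb of principal transcript, the mean normalized count was 4103 for LYZ, 1065 for TYROBP, 218 for MS4A6A and 147 for FCGR2A. It was 99.2 for FCER2, 72.2 for LILRB4 and 63.0 for CSF3R. PLXNC1 (21.7), CSF1R (18.0) and FCER1G (16.8) had the lowest values per kb. Division by length suits short fragments, and where each read is a whole transcript it would understate the long ones. Lower levels were found with BTG2 at both ends of this order, in LYZ and in FCER1G, the latter listed through its empty-vector level.

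Features of the transcripts were not used to choose the genes. The 3′ UTR, which holds many of the signals that set transcript stability, was shorter than the median of listed coding genes (1061 bases over 10484 genes) in 8 of the 10, and LILRB4 (2340) and PLXNC1 (2390) were the exceptions. MS4A6A had 143 bases, TYROBP 159, FCER1G 305, CSF3R 314, FCGR2A 410, FCER2 417, CSF1R 778 and LYZ 1015. The median was 716 bases in the 6 genes that were lower and 362 in the 4 that did not pass. For coding length the medians were 853.5 and 1768.5 bases, with 1360.5 over listed coding genes.

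The AU-rich pentamer AUUUA, the core of elements that bind decay factors, occurred in the 3′ UTR of 5 of the 10 genes and of 69.0% of listed coding genes. PLXNC1 held 8 copies, LILRB4 held 3, LYZ held 2, and FCER1G and FCGR2A held 1 each. Per kb of 3′ UTR these were 3.35 for PLXNC1, 3.28 for FCER1G, 2.44 for FCGR2A, 1.97 for LYZ and 1.28 for LILRB4. The shares of genes with a match take no account of the shorter 3′ UTR of most of the 10. FCER2 and MS4A6A, lower by about 2-fold, held 0. The longer form UAUUUAU was found only in FCER1G among the 10, and in 31.9% of listed coding genes. It begins at base 192 of the 305 bases of that 3′ UTR and is shown here in capitals within 30 bases, 5′ to 3′, as the only match among the 10. Whether it has a part in the fold change of FCER1G was not tested.
FCER1G: cuguuuacggaUAUUUAUauucuagucuca

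**Figure D4:**
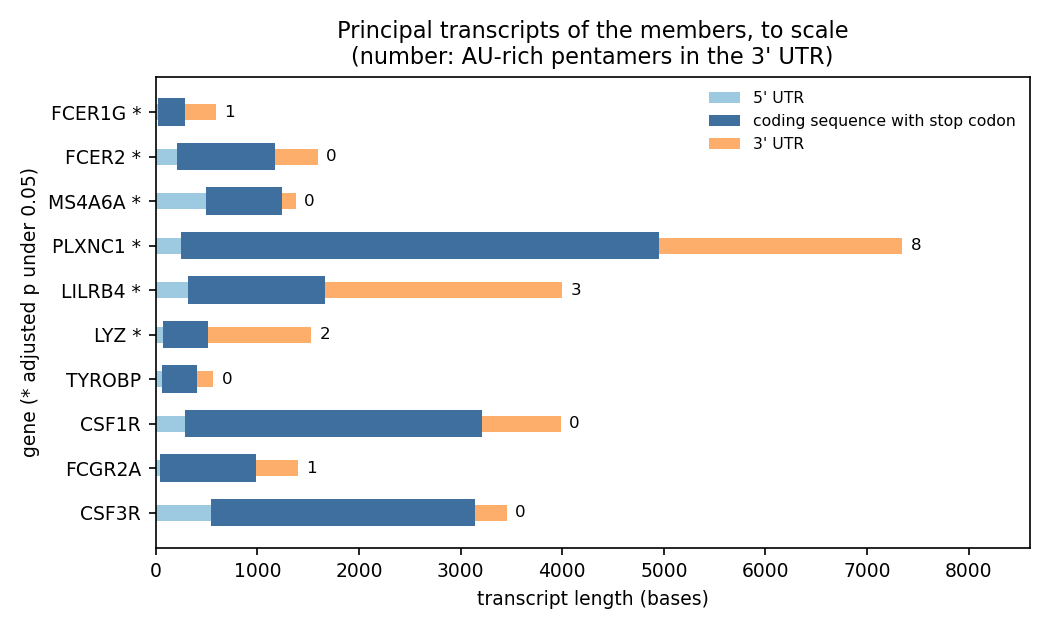
Principal transcripts of the 10 genes drawn to scale (x axis, bases; y axis, genes from the lowest fold change at the top), with the number of AU-rich pentamers beside each and an asterisk for an adjusted p under 0.05. Genes with an asterisk range from FCER1G, at 591 bases with 1 pentamer, to PLXNC1, at 7346 bases with 8.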

How the data were processed

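Poly(A) RNA was compared between 2 MOLM13 libraries with BTG2 and 2 with empty vector, grouped by sample titles. The labels' protocols describe short paired reads of 150 bp and the series title long reads, and no source used here says which gave the table. Alignment tool and build were minimap2 and hg38, per the submitters' processing notes. The authors deposited 1 table, in which the mean normalized count is a non-negative signal, fold changes and standard errors are log2 values, the score is the fold change over its standard error, and p-values are given unadjusted and adjusted, per the file headers. Benjamini-Hochberg adjustment over the listed genes gave the adjusted values again, with a largest gap of 1.48e-06. A gene was called at the authors' adjusted p under 0.05, and no test was added to this, apart from the alternatives in the section on dependence on the processing.

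The 10 genes and the lists were chosen with earlier results of these data known. Named genes are the 10, up to 3 of each related list with the largest absolute score, and those passing where 5 or fewer did, except a few that are not reported here. LILRB1, LILRA1, FCGR2B, SYK, PLXNB2, PLXND1, CEP83, CD68, AIF1, CTSS, POMK and OTULIN were named outside this rule, after their values were seen. Intervals are at the 95% level from the standard error. Implied levels assume equal groups whose means have the fitted ratio. Depth per library is unknown, and replicates may be technical.

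Transcripts are GENCODE release 29 (GRCh38, which is hg38), APPRIS principal where given, matched by identifier without version for 11398 of 11597 genes. Of the listed identifiers 686 carry that release's version, so the authors used another annotation. Promoters are RefSeq's, the window nearest the principal start. It lay 146 bases away for PLXNC1 and 857 for LILRB4, and at most 36 for the other 7. Copies were sought with BLAST 2.17.0 at 90% identity over at least 30% of a transcript. Python 3.11.15, pandas 2.3.3 and scipy 1.17.1 were used, and adjustment steps were tested on simulated data.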

Additional observations from a re-analysis of the deposited data

How the results depend on the processing

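The count of 6 lower genes became 3 when an absolute log2 fold change of at least 1 was also asked, and 1, MS4A6A, in a test against an absolute change of 0.5 with Benjamini-Hochberg adjustment over all genes. Over the whole table, 940 genes passed the authors' limit, 120 with the added fold, 81 against 0.5, 622 at an adjusted p under 0.01 and 312 with Bonferroni adjustment. LYZ, MS4A6A, FCER2 and PLXNC1 passed at an adjusted p under 0.01 and with Bonferroni adjustment over all genes, where FCER1G and LILRB4 did not. Both kinds of recentring and a limit of 0.1 kept the same 6, and adjustment over abundant genes alone kept 5, since FCER1G is not among them. Recentring on the abundant genes moved MS4A6A from -1.01 to -0.98, just under a 2-fold change. Of 68 alternatives for single genes 59 gave the same call, 9 lost it and 0 turned the direction. The cause of these losses was not tested. The 59 include every alternative for TYROBP, CSF1R, FCGR2A and CSF3R, which did not pass to begin with. Only recentring altered a fold change, and by less than the smallest absolute value among these genes. No direction could therefore turn, and the 0 says nothing about how stable the directions are. The list of inhibitory receptors had 2 genes in place of 1 at a limit of 0.1. Replicates could not be left out, and no paired analysis was possible because values per library were not analysed here.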

Other observations

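Genes near the 10 on the chromosome give their own values. Within 250 kb of either end of each gene, 82 other listed genes lay, of which 5 were lower and 1 higher, with a median log2 fold change of -0.05. Of all listed genes, 4.47% were lower and 3.64% higher at the same limit. Beside FCER2 lies CD209, a lectin receptor of dendritic cells and macrophages, which stood at -1.08 (adjusted p = 0.0279, SE 0.35) in the authors' deposited table, at a mean normalized count of 53.3. Beside LYZ, 5469 bases away, YEATS4, a chromatin reader, stood at -0.43 (SE 0.12) in the authors' deposited table and passed. SDHC, a complex II subunit near both FCER1G and FCGR2A, stood at -0.23 (SE 0.06) in the authors' deposited table and passed. LENG8, near LILRB4, was the 1 gene that rose, by 0.57 (adjusted p = 0.000616, SE 0.13) in the authors' deposited table. MS4A7, near MS4A6A, was also among the lower genes. Whether a gene and its neighbour moved together was not tested.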
